A study of Microhyla fissipes with 9 samples.

Results

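Tadpoles of the farmland frog Microhyla fissipes were kept for 10 days in water with 60 mg/L of a glyphosate-based herbicide (GBH). They were compared with tadpoles kept without it (0 mg/L, control). The comparison covered unigenes detected in every library of both groups and above a minimum mean level. Unigenes are the clusters of transcripts of an assembly made without a genome. A unigene was described where it lay above 0 FPKM in all 6 libraries and averaged at least 5 FPKM over them, FPKM being fragments mapped per kilobase of transcript, relative to the size of the library. The first condition alone held for 99995 of 426250 unigenes. Both conditions held for 35954 of 426250 unigenes (8.43%), and for 76.7% of the 46871 unigenes that averaged at least 5 FPKM. Of the others at that level, 114 had a 0 in every library at 60 mg/L but in no control, 128 showed the opposite pattern, and 10675 had a 0 in some other set of libraries. Just inside the limit, 494 unigenes with a mean of 5.0 to 5.1 FPKM had a median log2 difference of -0.031, against -0.045 for 574 unigenes with a mean of 4.9 to 5.0 FPKM.

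Exposed tadpoles at 60 mg/L GBH gave 3 libraries of whole tissue, and controls at 0 mg/L gave 3. All are labelled Gosner stage 30, when the hind limb buds grow out. A further 3 libraries at 90 mg/L entered the statistical fit and are quoted beside some values. Each dose had 5 containers of 1000 mL with 20 tadpoles each. How libraries relate to containers or to single animals is not in the labels, so p-values rest on the spread between libraries, some of which may be technical. In such bulk samples, fewer cells of a type and less RNA per cell cannot be told apart.

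Glyphosate blocks the shikimate pathway, by which plants and many microbes, but not animals, make aromatic amino acids. Commercial formulations also contain surfactants, which act on membranes such as those of gill and skin. In an animal transcriptome a small number of transcripts, typically those of contractile, ribosomal, mitochondrial and extracellular matrix proteins, holds a large part of all messenger RNA. Because FPKM are shares of a library, less RNA from such transcripts raises the FPKM of every other transcript, and the direction given to a typical transcript depends on how libraries are scaled to each other. The deposited table pairs no unigene with a gene name, so unigenes are described by expression level, and the label of whole tissue could not be checked against marker genes.

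The FPKM of a library summed to 2758170 to 2965299 at 60 mg/L, against 2867946 to 3005630 in controls. The table gives no read totals. Relative depth, read from the steps between low FPKM values with control replicate 1 set to 1, was 0.859 to 1.01 at 60 mg/L, against 0.959 to 1 in controls. GBH 60 mg/L replicate 2 and control replicate 2, with GBH 90 mg/L replicate 3, stood apart from the other 6 libraries. Pearson correlations of log2(FPKM + 1) over the described unigenes were 0.835 to 0.873 within these 3 and 0.806 to 0.923 within the other 6, against 0.658 to 0.837 for pairs across. Effect sizes are given after median-ratio scaling, which divides each library by the median of its ratios to the average library. The factors were 1.04 to 1.12 at 60 mg/L, against 0.765 to 0.918 in controls, so that the scaling lowers exposed and raises control values.

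The share of all FPKM held by the most abundant transcripts was lower at 60 mg/L, and those held at levels under 100 FPKM were higher. The 328 unigenes with a mean of 1000 FPKM or more held 39.1%, 43.8% and 38.4% of the summed FPKM in the 3 libraries at 60 mg/L, against 46.3%, 51.8% and 44.7% in the 3 controls. Every exposed library lay below every control. The means were 40.4% ± 2.90 at 60 mg/L and 47.6% ± 3.70 in controls (SD, n = 3 each), lower by 7.14 percentage points. The unigenes of 300 to 1000 FPKM held 10.1% ± 0.723 at 60 mg/L and 10.6% ± 0.267 in controls, and those of 100 to 300 FPKM 9.94% ± 1.07 at 60 mg/L and 9.28% ± 0.888 in controls (SD, n = 3 each). The groups overlapped at both of these levels. Libraries of equal replicate number were also compared, a pairing chosen after the data were seen. Their deviations from the group means correlated at 0.106, 0.323 and 0.112 for numbers 1, 2 and 3. The unequal pair of GBH 60 mg/L replicate 1 and control replicate 3 gave 0.133, so the pairing is uncertain. Between equal numbers, the share at 300 to 1000 FPKM was lower at 60 mg/L in all 3 pairs, with differences of -0.130, -1.01 and -0.369 points. That at 100 to 300 FPKM was higher in all 3 pairs, by 0.859, 0.454 and 0.668 points. An exact sign-flip permutation test over the pairs gave p = 0.25 at each level, the smallest that 3 pairs allow. The difference of means at 300 to 1000 FPKM was -0.504 points, against -0.794 when replicate 1 at 60 mg/L was left out and -0.0987 when replicate 2 was. That at 100 to 300 FPKM was 0.660 points, against 0.330, 1.28 and 0.375 with exposed replicates 1, 2 and 3 left out in turn, and 0.148 with control replicate 2 left out. With levels taken from the 90 mg/L libraries, the difference was -0.179 points at 100 to 300 FPKM and -4.65 points at 1000 FPKM or more.

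The lower levels held larger shares at 60 mg/L. Unigenes of 30 to 100 FPKM held 9.79% ± 0.778 of the summed FPKM at 60 mg/L and 8.50% ± 0.574 in controls, a gain of 1.29 points. Those of 10 to 30 FPKM held 8.35% ± 0.431 at 60 mg/L and 7.13% ± 0.346 in controls, a gain of 1.22 points. Those of 5 to 10 FPKM held 4.06% ± 0.155 at 60 mg/L and 3.35% ± 0.2 in controls, a gain of 0.715 points (SD, n = 3 each). At these 3 levels all exposed libraries lay above all controls. For each of the 4 levels without overlap the two-sided exact permutation test gave p = 0.1, the smallest that 3 libraries against 3 allow, and an adjusted p = 0.15 over the 6 levels. The 90 mg/L libraries, set against the same controls, held 41.1% ± 2.95 at 1000 FPKM or more and 3.87% ± 0.146 at 5 to 10 FPKM (SD, n = 3).

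**Figure D1:**
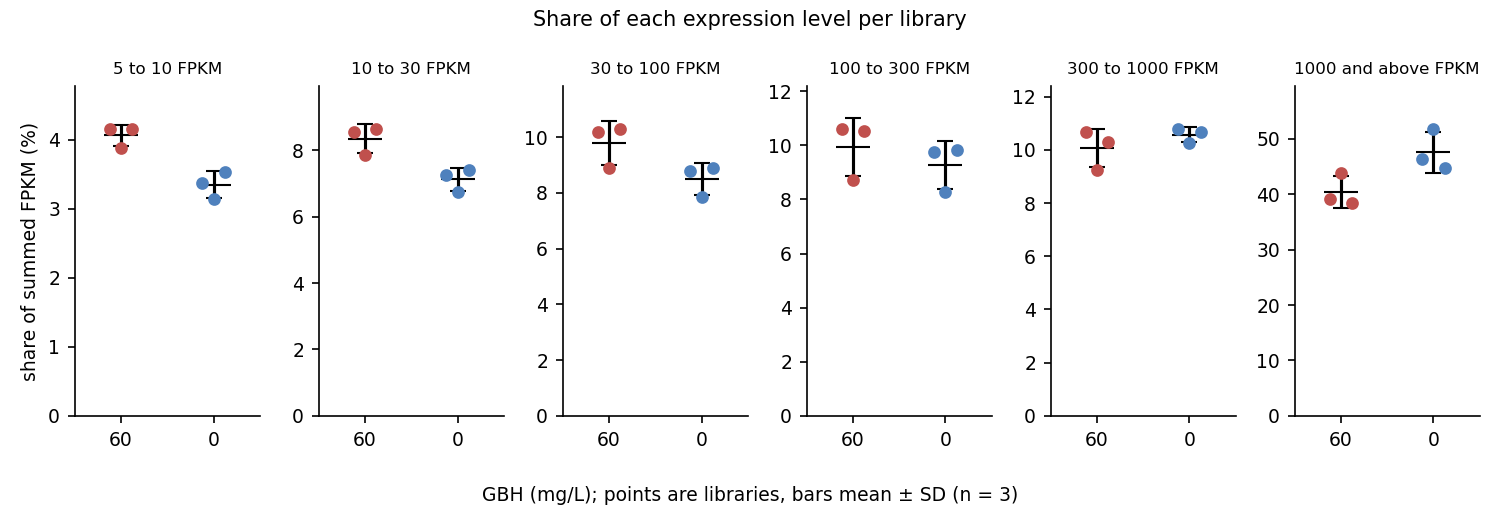
Share of the summed FPKM (%) held by the described unigenes of each expression level, with 1 point per library, GBH 60 mg/L left of control, and the mean ± SD (n = 3) as bars. The 3 exposed libraries lie between 38.4% and 43.8% at 1000 FPKM and above, below all controls (44.7% to 51.8%), and lie above all controls at the 3 levels under 100 FPKM.

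All described unigenes together held 82.7% ± 0.550 at 60 mg/L and 86.4% ± 1.51 in controls (SD, n = 3 each; exact permutation p = 0.1). The net loss of 3.76 points was made up of 15.0 points lost by 10436 unigenes and 11.2 points gained by 25518 unigenes. The level of 1000 FPKM and above lost 9.30 points in 233 unigenes and gained 2.16 points in 95. The level of 5 to 10 FPKM lost 0.278 points and gained 0.992, and that of 30 to 100 FPKM lost 0.935 points and gained 2.22. Of the loss, 97 unigenes accounted for 50%, 85 of them at 1000 FPKM or more. To reach 50% of the gain took 758 unigenes. Of these, 670 lay at 100 FPKM or more, and 86 at 1000 FPKM or more. Both totals are in points of summed FPKM, so abundant unigenes weigh most. The 328 unigenes at 1000 FPKM or more held 47.6% in controls. How many unigenes hold 50% of the summed FPKM itself was not counted, so the 97 and the 758 have no background beside them. After scaling, groups did not overlap in 59 of the 97 and in 140 of the 758. Of all tested unigenes, 5.36% (lower) and 4.53% (higher) did not overlap. Unigenes were sorted by their own difference, so spread between libraries adds to both totals. Groups without overlap are also made more frequent among the 97 and the 758 by this choice, and add no support. The choice used shares as deposited, while overlap was judged after a scaling that lowers exposed and raises control values. The 59 and the 140 therefore cannot be compared with each other. The unigenes with a mean under 5 FPKM, which are not described further, held 11.9% ± 0.772 at 60 mg/L and 9.10% ± 0.514 in controls (SD, n = 3 each). This was a gain of 2.82 points without overlap (exact permutation p = 0.1), larger than that of any described level. Unigenes that averaged at least 5 FPKM with a 0 in some library held 5.42% ± 0.404 at 60 mg/L and 4.48% ± 1.10 in controls, and overlapped (SD, n = 3 each; exact permutation p = 0.2).

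Within the level of 1000 FPKM and above, the 10 highest unigenes differed little in share, in a split by rank that was chosen after the values were seen. These 10 held 7.23% ± 0.576 of the summed FPKM at 60 mg/L and 7.33% ± 0.516 in controls (SD, n = 3 each; exact permutation p = 0.7). The unigenes ranked 11 to 50 held 10.7% ± 1.04 at 60 mg/L and 13.2% ± 1.26 in controls, with no overlap. Those ranked 51 to 100 held 8.14% ± 1.23 at 60 mg/L and 9.30% ± 1.29 in controls, and overlapped. The next 100 held 9.05% ± 0.440 at 60 mg/L and 10.9% ± 0.215 in controls, and the last 128 of this level held 5.35% ± 0.366 at 60 mg/L and 6.87% ± 0.448 in controls. Both of these bands had no overlap between groups (exact permutation p = 0.1 each, unadjusted over the 5 bands).

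The highest unigene stood at 35979.5, 55806.59 and 36049.67 FPKM at 60 mg/L, against 46063.9, 44216.54 and 47187.14 FPKM in controls. GBH 60 mg/L replicate 2 lay above every control and the other exposed libraries below them. After scaling its log2 difference was -0.49 (SE 0.19, adjusted p = 0.69 by limma), with no overlap. The unigene ranked sixth had the largest difference of the 10. It stood at 14460.03, 13308.35 and 13366.42 FPKM at 60 mg/L, against 19068.31, 17819.85 and 17407.22 FPKM in controls, below all controls in every exposed library. Its log2 difference was -0.76 (SE 0.14, adjusted p = 0.105 by limma). After scaling all 10 had a lower mean at 60 mg/L, with log2 differences of -0.76 to -0.26, and 0 passed the threshold; as deposited, 7 of the 10 had a lower mean at 60 mg/L.

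Unigene by unigene, the difference at 60 mg/L became more negative with expression level. After scaling, the median log2 difference of log2(FPKM + 1) between 60 mg/L and control was -0.07 for 15061 unigenes of 5 to 10 FPKM and -0.12 for 13278 of 10 to 30 FPKM. It was -0.16 for 5069 unigenes of 30 to 100 FPKM and -0.23 for 1646 of 100 to 300 FPKM. It reached -0.35 for 572 unigenes of 300 to 1000 FPKM and -0.58 for the 328 at 1000 FPKM or more. Over all described unigenes the median was -0.11, beside 0 for all 147577 unigenes tested and 0.03 for the 100706 tested unigenes with a mean under 5 FPKM. These medians describe the table and carry no test, since unigenes of the same libraries are not replicates.

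The sign at the lower levels depended on the scaling. The order of the levels was the same for scaled and deposited values. Dividing each library by its own factor moves all levels by nearly the same amount, so this equal order adds no support. With the FPKM as deposited, medians were 0.23, 0.21, 0.19, 0.12, 0.01 and -0.22 from the lowest level to the highest. The median of the highest level less that of the lowest was -0.51 after scaling and -0.45 as deposited. Without control replicate 2 the median of the highest level was -0.36. At 90 mg/L against the same controls, the scaled medians were -0.12, -0.15, -0.16, -0.20, -0.34 and -0.49 in the same order.

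**Figure D2:**
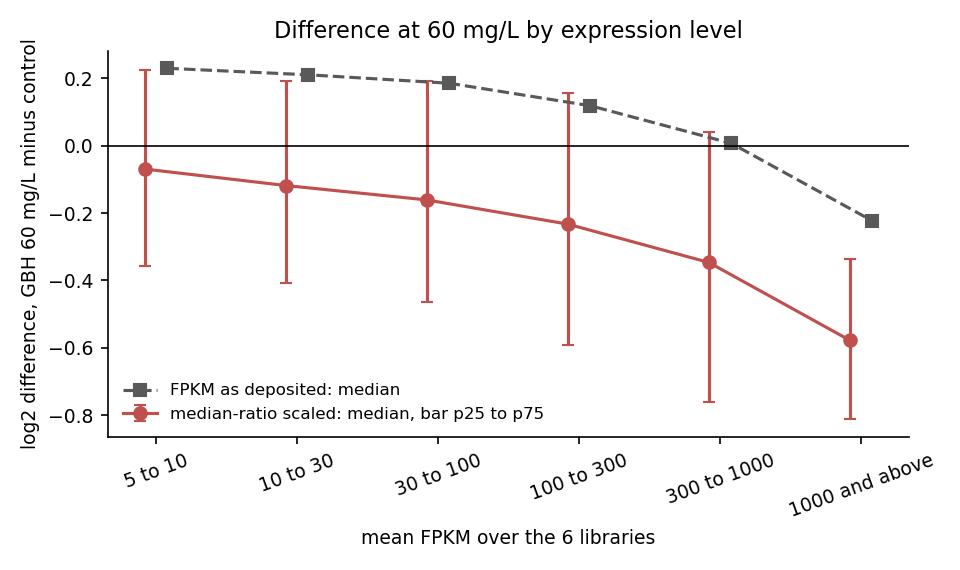
Median log2 difference, GBH 60 mg/L minus control, of the described unigenes (y axis) by expression level (x axis), after median-ratio scaling with bars from the 25th to the 75th percentile of unigenes, and as deposited without bars. Scaled medians run from -0.07 to -0.58 and deposited ones from 0.23 to -0.22, both lowest at 1000 FPKM and above.

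After scaling, the share of unigenes with a lower value at 60 mg/L followed the same order. It was 56.9% at 5 to 10 FPKM, 61.0% at 10 to 30, 63.2% at 30 to 100, 67.0% at 100 to 300, 72.6% at 300 to 1000 and 92.4% at 1000 FPKM or more, where 303 unigenes were lower and 25 higher. Judged by share of summed FPKM instead, 10997 of the 15061 unigenes at 5 to 10 FPKM were higher at 60 mg/L. At 1000 FPKM or more, 95 of the 328 were higher by share. The sign at the lower levels thus depended on the scaling here too. The spread of scaled differences was wide at every level. The 5th and 95th percentiles of unigenes were -0.96 and 0.81 at 5 to 10 FPKM, -2.45 and 0.93 at 300 to 1000 FPKM, and -2.03 and 0.14 at 1000 FPKM or more. The median SD within groups was 0.57 on the log2 scale at 5 to 10 FPKM and 0.44 at 1000 FPKM or more. The scaled median difference was 1.32 times this SD at the top and 0.121 times it at the bottom. This contrast depended on the scaling, since the deposited medians were of similar size, -0.22 at the top and 0.23 at the bottom.

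Library by library, the shift at the top was not uniform. Relative to the mean of the 6 libraries after scaling, the median unigene at 1000 FPKM or more lay at -0.34, -0.08 and -0.41 in the 3 libraries at 60 mg/L, against 0.17, 0.69 and 0.02 in the 3 controls. All exposed libraries lay below all controls, GBH 60 mg/L replicate 2 and control replicate 2 being the highest of their groups. Less each library's own value at 5 to 10 FPKM, this became -0.38, -0.01 and -0.40 at 60 mg/L, against 0.11, 0.62 and -0.01 in controls. The subtraction removes most of the scaling but not all, since 1 is added to each value before the log. GBH 60 mg/L replicate 2 then lay marginally above control replicate 3, at -0.0085 against -0.0123, and the groups overlapped. Whether this order holds under another scaling was not tested. The difference of group means was -0.50 (exact permutation p = 0.2). Between libraries of equal replicate number it was -0.49, -0.63 and -0.39, negative in all 3 pairs (exact sign-flip permutation p = 0.25, the smallest that 3 pairs allow). By the medians of unigene differences it was -0.51, against -0.31 without control replicate 2 and -0.46 without the 3 libraries that stood apart. The part of those libraries' other differences in this result was not tested.

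**Figure D3:**
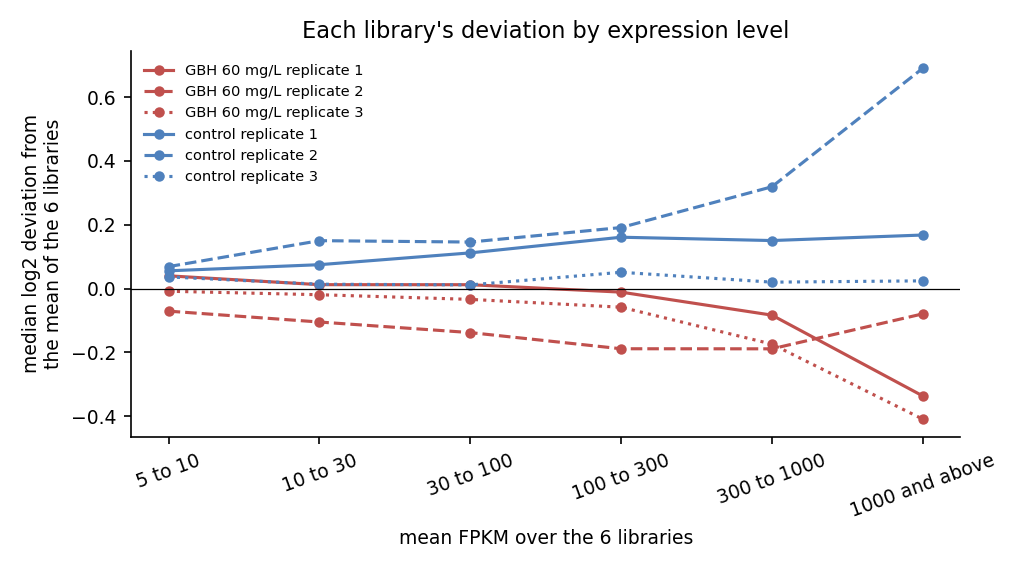
Median log2 deviation of each library from the mean of the 6 libraries (y axis), over the described unigenes of each expression level (x axis), after median-ratio scaling, with 1 line per library. At 1000 FPKM and above the exposed libraries lie at -0.41 to -0.08 and the controls at 0.02 to 0.69, and replicate 2 of each group is the highest of its group.

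For single unigenes, expression fell in 74 of the 35954 described unigenes and rose in 4, at an adjusted p under 0.05 by limma with Benjamini-Hochberg adjustment over all tested unigenes. This is 0.206% and 0.0111%, beside 0.199% and 0.0495% of all tested unigenes, so with all libraries the share that fell was near the background and the share that rose below it. The falls numbered 2 at 5 to 10 FPKM, 18 at 10 to 30, 19 at 30 to 100, 14 at 100 to 300, 15 at 300 to 1000 and 6 at 1000 FPKM or more. The 4 rises lay at 10 to 100 FPKM. Of the 35954 described unigenes, 35713 share the first part of their identifier, as do 335376 of all 426250. How unigenes relate to genes is not known here, so the 74 and the 4 are not counts of separate genes. Blocking on replicate number gave 17 falls and 1 rise, 16 and 1 of them among those called without the block. The 17 and the 1 were 0.0473% and 0.00278% of the described unigenes, beside 0.0657% and 0.0129% of all tested. Limma fitted to these 6 libraries alone called 0, and 0 of all tested. At an unadjusted p under 0.05 it gave 1929 lower and 814 higher, 5.37% and 2.26% of the described unigenes, beside 2.84% and 2.44% of all tested. Leaving out 1 library moved the count of falls most for control replicates 1 (26) and 3 (34), for replicate 3 at 60 mg/L (34) and for replicate 1 at 90 mg/L (48). It moved the count of rises most for GBH 60 mg/L replicates 1 (2) and 2 (12) and control replicate 2 (8). In these fits the share of described unigenes that fell was below that of all tested, 0.0723% beside 0.223% without control replicate 1, 0.0946% beside 0.255% without control replicate 3, 0.0946% beside 0.171% without GBH 60 mg/L replicate 3 and 0.134% beside 0.18% without GBH 90 mg/L replicate 1. The share that rose was 0.00556% beside 0.187%, 0.0334% beside 0.214% and 0.0223% beside 0.0827% without GBH 60 mg/L replicates 1 and 2 and control replicate 2. Without the 3 libraries that stood apart there were 119 falls and 30 rises, 45 and 3 of them among those called with all libraries. These were 0.331% and 0.0834% of the described unigenes, beside 0.497% and 0.367% of all tested. With FPKM as deposited there were 44 falls, all among the 74, and 13 rises, so that rises made up 22.8% of the calls in place of 5.13%. The 44 and 13 were 0.122% and 0.0362% of the described unigenes, beside 0.148% and 0.0569% of all tested.

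The 74 unigenes that fell had a median log2 difference of -2.70, from -5.57 to -1.47, and scaled control means a median of 6.86 times those at 60 mg/L. Together they held 0.243% ± 0.0216 of the summed FPKM at 60 mg/L and 1.24% ± 0.107 in controls (SD, n = 3 each). Of the 74, 71 lay above 0 in all 9 libraries. At 90 mg/L, against the same controls, their median log2 difference was -2.70, and they held 0.255% ± 0.0552 of the summed FPKM (SD, n = 3). In the test of 90 against 60 mg/L, 0 of these 74 and 0 of the 4 that rose were called by limma, with 5 and 1 at an unadjusted p under 0.05. Of all tested unigenes, 0.0346% were called in that contrast and 3.38% had an unadjusted p under 0.05, in either direction. Because the calls were chosen on this contrast, their medians and shares against control are a description of the list.

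Cluster-47276.172772 showed the largest fall among the described unigenes that were called. It stood at 68.99, 59.89 and 32.56 FPKM at 60 mg/L, against 1696.77, 1937.6 and 2233.37 FPKM in controls. Both groups were tight and more than an order of magnitude apart, and after scaling the control mean was 46.3 times that at 60 mg/L. The log2 difference was -5.57 (SE 0.30, adjusted p = 0.0024 by limma). At 90 mg/L it stood at 49.13, 51.66 and 48.8 FPKM. The call held in 21 of 22 alternative fits, the exception being the fit to these 6 libraries alone (adjusted p = 0.0762).

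Cluster-47276.164202 stood at 19.26, 5.07 and 1.96 FPKM at 60 mg/L, against 378.31, 180.82 and 209.1 FPKM in controls. The exposed libraries differed among themselves by nearly an order of magnitude but stayed below every control. The log2 difference was -5.42 (SE 0.73, adjusted p = 0.0255 by limma), and at 90 mg/L it was listed at 0, 2.04 and 0 FPKM. This call was lost in 11 of 22 alternative fits, including the replicate block (adjusted p = 0.0678), a pseudocount of 0.1 (0.207), the fit to these 6 libraries (0.114) and the fits that left out 1 control each (0.108, 0.0707 and 0.0851 for replicates 1, 2 and 3). It was also lost without GBH 60 mg/L replicates 2 and 3 (0.1 and 0.0644) and GBH 90 mg/L replicates 1 and 3 (0.0655 and 0.0608), and without the 3 libraries that stood apart (0.271).

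Cluster-47276.281997 showed the largest rise among the described unigenes that were called. It stood at 170.05, 37.99 and 252.86 FPKM at 60 mg/L, against 3.29, 0.33 and 1.36 FPKM in controls. Every exposed library was at least an order of magnitude above every control. The scaled mean at 60 mg/L was 75.2 times that of controls, and the log2 difference 5.42 (SE 0.72, limma adjusted p = 0.0251), and at 90 mg/L it stood at 333.22, 223.52 and 451.72 FPKM. This call was lost in 8 of 22 alternative fits. They were the fit to these 6 libraries (adjusted p = 0.159) and those without control replicates 2 and 3 (0.0775 and 0.0995), GBH 60 mg/L replicates 1 and 3 (0.0969 and 0.0828) and GBH 90 mg/L replicates 1, 2 and 3 (0.0738, 0.0663 and 0.0623).

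Cluster-47276.173233 rose with less spread, at 112.26, 48.76 and 81.92 FPKM at 60 mg/L, against 1.72, 3.84 and 3.62 FPKM in controls. The groups were far from overlapping, and the scaled mean at 60 mg/L was 20.7 times that of controls. The log2 difference was 4.01 (SE 0.46, adjusted p = 0.0113 by limma), and at 90 mg/L it stood at 121.46, 116.39 and 58.26 FPKM. This call was lost with the replicate block (adjusted p = 0.0757) and in the fit to these 6 libraries (0.0917). The other 2 unigenes that rose had log2 differences of 3.91 and 3.38.

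**Figure D4:**
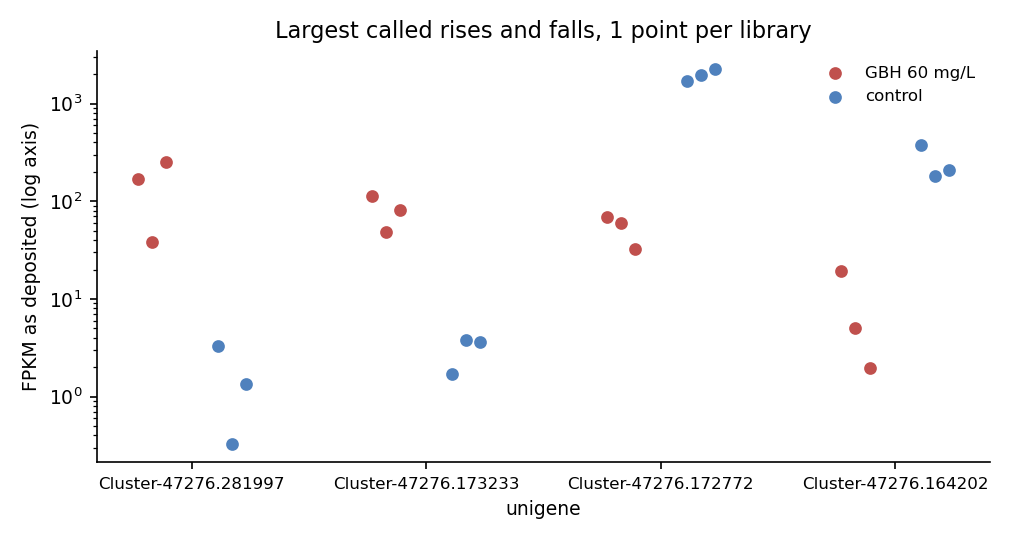
FPKM as deposited (log axis) of the 2 described unigenes with the largest called rise and the 2 with the largest called fall, 1 point per library, GBH 60 mg/L left of control. In each unigene the 3 exposed points lie wholly above or wholly below the 3 controls, and the exposed points of Cluster-47276.164202 spread from 1.96 to 19.26 FPKM.

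Most of the large differences had no call, though few described unigenes showed a large difference. Of the 35954 described unigenes, 399 were lower by 4-fold or more after scaling, 64 of them called. Another 86 were higher by 4-fold or more, 4 of them called. Such differences were not counted over all tested unigenes or with FPKM as deposited, so the excess of falls may depend on the scaling. The largest uncalled fall, picked out after its values were seen, stood at 3828.15, 2.07 and 2.5 FPKM at 60 mg/L, against 3794.91, 6248.61 and 3768.8 FPKM in controls. GBH 60 mg/L replicate 1 was thus level with the controls and the other exposed libraries nearly empty. Its log2 difference was -7.34 with an SE of 2.34 (adjusted p = 0.572 by limma), and the 90 mg/L libraries stood at 4456.89, 4510.58 and 10170.8 FPKM. The unigene with the largest loss at 30 to 100 FPKM had 1.63, 0.35 and 1.39 FPKM at 60 mg/L, against 300.89, 1.01 and 136.17 FPKM in controls, control replicate 2 being within the exposed range (adjusted p = 0.654 by limma).

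Large gains of abundant transcripts were as uneven. The largest gain at 1000 FPKM or more stood at 7371.68, 13560.74 and 2166.28 FPKM at 60 mg/L, against 961.76, 1250.94 and 1499.89 FPKM in controls. All exposed libraries were higher, by amounts that differed several-fold among them. Its log2 difference was 1.95 (SE 0.57, adjusted p = 0.496 by limma). At 100 to 300 FPKM the largest gain stood at 541.71, 712.83 and 157.77 FPKM at 60 mg/L, against 67.86, 72.25 and 92.02 FPKM in controls (log2 difference 1.99, SE 0.51, adjusted p = 0.346 by limma). The largest loss at 300 to 1000 FPKM was called, with 220.51, 388.07 and 203.49 FPKM at 60 mg/L, against 1333.56, 2097.93 and 1615.33 FPKM in controls (log2 difference -3.02, SE 0.41, adjusted p = 0.0265 by limma).

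**Figure D5:**
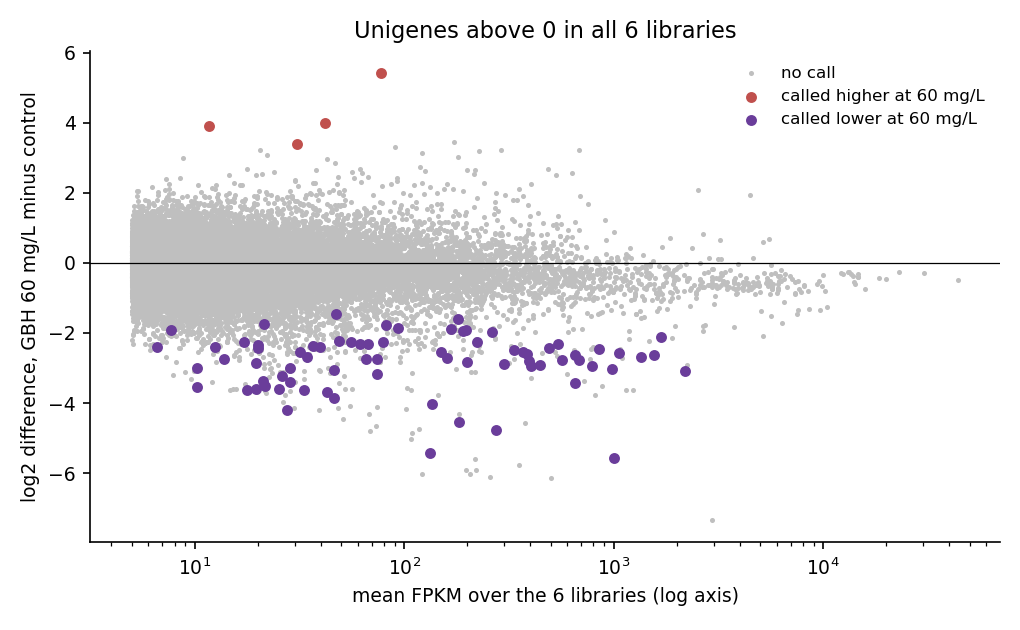
Log2 difference, GBH 60 mg/L minus control, after median-ratio scaling (y axis) against mean FPKM over the 6 libraries (log axis) for the 35954 described unigenes, 1 point each. The 4 called rises lie between 3.38 and 5.42 and the 74 called falls between -5.57 and -1.47, and above 1000 FPKM nearly all points lie below 0.

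Groups without overlap, counted after scaling, were more frequent among falls of abundant unigenes. All 3 exposed libraries lay below all 3 controls in 3651 described unigenes (10.2%), beside 5.36% of all tested unigenes. The opposite held in 1506 (4.19%), beside 4.53% of all tested unigenes. By level, the lower pattern made up 7.26% at 5 to 10 FPKM, 9.92% at 10 to 30, 13.4% at 30 to 100, 19.9% at 100 to 300, 21.3% at 300 to 1000 and 34.8% at 1000 FPKM or more. The higher pattern stayed between 4.06% and 4.68% below 1000 FPKM and was 0.610% above it, in 2 unigenes. With FPKM as deposited the counts turned round, to 1433 lower and 4508 higher. For deposited values the pattern was not counted over all tested unigenes, so these counts have no background beside them. A difference of 2-fold or more was found in 6.56% (lower) and 3.08% (higher) of the described unigenes, beside 9.88% and 10.2% of all tested unigenes, most of which have lower means.

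The unigenes at 0 in a whole group were set apart, because a 0 in an FPKM table may be a failed estimate. Of the 114 absent from the 60 mg/L libraries, 84 averaged 5 to 10 FPKM over the 6 libraries, 25 10 to 30, 4 30 to 100 and 1 more than 100 FPKM. Of the 128 absent from the controls, 89 averaged 5 to 10 FPKM and 39 10 to 30. They made up small shares: the 128 held 0.0867% ± 0.0122 of the summed FPKM at 60 mg/L, and the 114 held 0.0828% ± 0.0252 in controls (SD, n = 3 each). The highest of the 114 was at 0 in every exposed library, those at 90 mg/L included, and had 333.66, 74.81 and 246.72 FPKM in controls. The highest of the 128 had 57.08, 37.71 and 76.75 FPKM at 60 mg/L, where the controls had 0, and 71.68, 23.27 and 30.9 FPKM at 90 mg/L. At 90 mg/L, 44 of the 114 were at 0 throughout and 8 above 0 in all 3. Of the 128, 30 were above 0 in all 3 and 25 at 0 throughout. Limma called 64 of the 114 and 39 of the 128, beside 0.199% (lower) and 0.0495% (higher) of all tested unigenes. Both sets were chosen for a complete split between the groups, so frequent calls follow from the choice and add no support. A group at 0 also adds no spread to the fit, and these p-values may be too small.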

How the data were processed

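Poly-A selected RNA of whole tadpoles was sequenced as paired ends, per the labels' protocols. The authors deposited FPKM per unigene and library, named so per the labels; the sources used here do not name the assembler, aligner, counter, versions or filters. Because FPKM are not counts, limma 3.58.1 in R 4.3.3 was run on log2(FPKM + 1) after median-ratio scaling over the 9 libraries, with 1 mean per dose and a spread moderated with a trend on expression. It was fitted to the 147577 unigenes that averaged at least 1 FPKM across all 9 libraries, all 35954 described unigenes among them, with 6 residual degrees of freedom. Benjamini-Hochberg adjustment ran over all of these, with a threshold of 0.05. Shares were computed from FPKM as deposited and compared by exact permutation, two-sided, in SciPy 1.17.1, and between equal replicate numbers by exact sign flips. Sampling error per value is unknown without counts, so low levels are the least precise. Relative depth was the inverse of the most frequent ratio to control replicate 1 at 0.2 to 0.3 FPKM. No pair of libraries shared more than 1.72% of equal values, so none was taken for a copy. Equal replicate numbers of 60 and 0 mg/L deviated together, with correlations of 0.106, 0.323 and 0.112 for numbers 1, 2 and 3, all over the bound of 0.1, though GBH 60 mg/L replicate 1 and control replicate 3 gave 0.133. Blocked values are therefore given beside changed calls; what a number marks is not in the labels.

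Unigenes were named by rule, the 2 largest rises and 2 largest falls among described unigenes that were called and had no overlap. Others are given by rank, without identifier. The comparison, members, levels and alternatives were chosen with earlier results of these data known. The fit was also run on simulated data, whose outcome is not given here and adds no support to the calls. Other tools were pandas 2.3.3 and matplotlib 3.10.9.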

Additional observations from a re-analysis of the deposited data

How the results depend on the processing

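Without read counts, no alternative could be run on sampling error, and the depth limits low levels most. In no alternative were groups without overlap counted over all tested unigenes. Whether the counts without overlap given below differ from the background was therefore not tested. With FPKM as deposited, called rises and falls were 13 and 44 and the level medians, from lowest to highest, 0.23, 0.21, 0.19, 0.12, 0.0070 and -0.22, while groups without overlap numbered 4508 higher and 1433 lower. Scaling factors from the described unigenes, chosen after seeing the data, gave 8 rises and medians of 0.030, -0.0089, -0.047, -0.12 and -0.23 up to 1000 FPKM. Quantile normalization, which makes the distributions equal and so removes differences between levels by construction, gave 9 rises, 44 falls, medians of 0.0052, 0.0060, 0.028, 0.065, 0.072 and 0.061, a difference between highest and lowest level of 0.056, share differences of -0.054, -0.15, 0.089, 0.203 and -0.306 points (all levels but 100 to 300 FPKM), and 2519 higher and 2361 lower without overlap. With quantile normalization the rises and falls were 0.025% and 0.122% of the described unigenes, beside 0.0515% and 0.167% of all tested. With factors from the described unigenes the rises were 0.0223%, beside 0.0522%. Scaling by libraries' factors cancels in shares of summed FPKM, which were not recomputed for it.

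Without a filter on low values 47 unigenes fell, without a trend 41, and with only the described unigenes tested 8 rose. The 47 were 0.131% of the described unigenes, beside 0.0718% of all tested in that fit. The 41 were 0.114%, beside 0.214%, and the 8 were 0.0223%, with no other unigenes tested. With the replicate block 1 rose and 17 fell; it ended the calls of Cluster-47276.173233 and Cluster-47276.164202 only among the named unigenes. In the fit to these 6 libraries 0 rose and 0 fell. Without the 3 libraries that stood apart 30 rose and 119 fell, with medians of -0.026, -0.046, -0.083 and -0.14 up to 300 FPKM, and 7112 higher and 10247 lower without overlap, a pattern more frequent with 2 libraries a group. With levels taken from the 90 mg/L libraries, the median at 300 to 1000 FPKM was -0.23 and the gains at 5 to 10 and 10 to 30 FPKM were 0.473 and 0.825 points. The difference in share at 1000 FPKM or more was then -4.65 points, outside the range found by leaving out 1 library. That at 100 to 300 FPKM changed sign, to -0.179 points. A mean of at least 2 FPKM left 349 and 376 unigenes at 0 in all 60 mg/L libraries and in all controls, and one of at least 10 FPKM left 30 and 39.

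Leaving out 1 library at a time gave 2 to 12 rises, 26 to 89 falls, 2188 to 4230 higher and 4546 to 7320 lower without overlap, and 147 to 342 and 224 to 354 unigenes at 0 at 60 mg/L and in controls. The medians, from the lowest level to the highest, were then -0.089 to -0.033, -0.17 to -0.077, -0.21 to -0.093, -0.28 to -0.13, -0.41 to -0.26 and -0.70 to -0.36; those of the first 4 levels came closest to 0 without GBH 60 mg/L replicate 2. The difference in share ran from 0.148 to 1.28 points at 100 to 300 FPKM, -0.794 to -0.0987 at 300 to 1000 FPKM and -8.80 to -5.06 at 1000 FPKM or more. Without control replicate 2, the 89 falls were 0.248% of the described unigenes, beside 0.442% of all tested. A group reduced to 2 libraries makes a complete split, or a whole group at 0, more frequent by itself. These counts without overlap and at 0 therefore cannot be compared with those from all 6 libraries. Comparing equal replicate numbers, chosen after seeing the data, leaves mean share differences as they are by construction, and each level's difference had 1 sign in all 3 pairs. The cause of these changes was not tested.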
